A study of Homo sapiens with 4 samples.

Results

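The BCL2 family controls the mitochondrial step of apoptosis, and 10 of its genes were followed here in ES2 ovarian cancer cells treated with the ERβ agonist liquiritigenin (Liq). The members were chosen by gene symbol from the 23228 genes listed in the count tables, and all 10 symbols were found. ES2 is an established cell line of human ovarian cancer. The cells were kept in phenol red-free RPMI-1640 medium with 5% charcoal-treated serum and received either vehicle or 100 μM Liq, a plant flavanone, for 24 h, the dose being that of the methods of the study. Total RNA was sequenced from 2 vehicle samples and 2 Liq samples of this 1 cell line, and reads were counted per gene. The labels do not say whether the 2 samples of a group came from separate cultures, so p-values measure only the spread between these samples, which may be technical. The question was which members Liq raised or lowered.

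Prosurvival members of the family (BCL2, BCL2A1, BCL2L1, BCL2L2 and MCL1) hold the pore formers BAX and BAK1 in check. BH3-only members (BMF, BCL2L11, BBC3, PMAIP1 and BIK) bind into a groove of the prosurvival proteins and so favor pore formation and the release of cytochrome c, which leads to caspase activation. BCL2A1, which encodes BFL-1 (also called A1), is best known from blood cells and is a classical NF-κB target, and MCL1 is a short-lived protein. mRNA levels do not give the amounts of the proteins, which for MCL1 and the BH3-only proteins are also set after translation.

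Of the 10 members, 9 had enough reads to be tested and 5 changed with Liq (55.6%, against 24.0% of all tested genes). The members were chosen with earlier results of these data known, and of 9 other tested BCL2 relatives 0 passed the test. Prosurvival BCL2A1, BCL2L1 and MCL1 and the BH3-only gene BMF fell, and prosurvival BCL2 rose. BCL2A1 fell by 69.7% and BMF fell by 53.9%, while BCL2L1 fell by 28.7% and MCL1 fell by 27.6%. The rise of BCL2 was 25.8%. BCL2L2, BCL2L11, BBC3 and PMAIP1 did not pass the test, and BIK had no read in any sample.

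The starts of the 3 genes that frame these results are shown first, to set the gene that fell most, BCL2A1, beside BMF and MCL1. Each sequence runs 5′ to 3′ on the strand of the gene, from 250 bases before to 50 bases after the start of its MANE Select transcript in GENCODE, on GRCh37 (hg19), the build the authors used. These windows are chr15:80263489-80263788 for BCL2A1, chr15:40401031-40401330 for BMF and chr1:150552037-150552336 for MCL1, all on the minus strand. Capitals mark matches to a κB consensus (BMF and MCL1) or to TATAAA (BCL2A1).
BCL2A1: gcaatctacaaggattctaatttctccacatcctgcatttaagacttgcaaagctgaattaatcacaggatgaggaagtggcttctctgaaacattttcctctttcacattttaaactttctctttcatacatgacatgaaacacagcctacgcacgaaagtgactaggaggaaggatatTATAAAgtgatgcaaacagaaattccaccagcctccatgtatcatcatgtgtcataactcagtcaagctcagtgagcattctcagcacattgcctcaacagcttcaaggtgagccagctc
BMF: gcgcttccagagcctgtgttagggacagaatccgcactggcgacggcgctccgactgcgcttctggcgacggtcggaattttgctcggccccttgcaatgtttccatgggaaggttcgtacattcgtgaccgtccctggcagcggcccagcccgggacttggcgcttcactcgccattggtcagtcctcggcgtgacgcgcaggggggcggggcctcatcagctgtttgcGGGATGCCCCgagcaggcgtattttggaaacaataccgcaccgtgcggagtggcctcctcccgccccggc
MCL1: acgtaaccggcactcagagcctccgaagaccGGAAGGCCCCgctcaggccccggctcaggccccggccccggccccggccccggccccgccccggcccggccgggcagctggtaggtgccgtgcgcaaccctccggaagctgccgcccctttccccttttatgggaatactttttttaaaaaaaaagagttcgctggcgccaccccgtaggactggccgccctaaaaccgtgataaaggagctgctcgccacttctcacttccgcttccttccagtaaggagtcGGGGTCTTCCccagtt

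The BCL2A1 window had a GC content of 41%, and 5.99% of all 18922 windows of this kind were at or below that value. The windows of the other 9 members were between 61.3% and 82.3% GC, and the median over all windows was 64%. The letters TATAAA, searched on both strands, began at position -70 of BCL2A1, counted back from the start, and were in no other member window. Of all windows, 9.44% held them. The κB consensus was found in the windows of MCL1 (2 places), BMF (1 place) and BBC3 (1 place), and 12.7% of all windows had a match. GCGNGGGCG, a motif of EGR factors, was present in BCL2L11 and BBC3 and in 14.4% of all windows. The AP-1 motif TGANTCA and the antioxidant motif TGACNNNGC, which can overlap each other, were in no member window and in 5.40% and 14.1% of all windows. The consensus of the estrogen response element, a palindrome, was likewise in no member window, and 0.0423% of all windows held it. All motifs were searched on both strands. A match is a description of the letters, and windows without one say nothing about the factor. The TATAAA search was added after the letters had been seen.

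Per sample, 34573053 to 48933893 reads were assigned to genes, and 3 counts, the smallest level taken as detectable, corresponded to 0.0598 to 0.0844 CPM (TMM-normalized counts scaled to the library size). The chi-square per degree of freedom was 6.49 between the vehicle samples and 11.6 between the Liq samples, against 60.5 to 74.7 between groups, so no samples were treated as 1 library. Of the epithelial markers, KRT7, KRT8 and KRT18 were read in every sample, but CDH1 and MSLN had 0 counts in all 4 samples and EPCAM, KRT19 and MUC16 had 0 to 3 counts. Mesenchymal markers, VIM and FN1 first among them, summed to 17100 and 16400 CPM in vehicle and 15300 and 14500 CPM in Liq. Of 12 leukocyte markers, 4 had no count in any sample and the sum of the list was 1.18 to 1.24 CPM in vehicle and 0.677 to 0.928 CPM in Liq. Among these PTPRC, which defines leukocytes, had 0 counts in 3 samples and 1 count in the other. The endothelial markers PECAM1 and VWF had 10 counts or fewer in every sample, and the sum of the 5 endothelial markers, nearly all of it from CDH5, was 53.3 to 55.9 CPM in vehicle and 46.1 to 49.6 CPM in Liq. Of the tested markers, 3 of 5 epithelial ones fell (PAX8, WT1 and KRT18, log2 fold changes -1.34, -0.68 and -0.24) and 1 rose (KRT7, 0.51). Of 9 mesenchymal ones 2 fell (VIM and FN1) and 5 rose. In addition, 1 of 2 leukocyte ones (LYZ, 8 to 23 counts) and 1 of 2 endothelial ones (KDR) fell. The epithelial and mesenchymal shares called were 80% and 77.8%, against 24.0% of all tested genes. The part of these markers in the changes of the members was not tested. ESR2, which encodes ERβ, had 4 and 7 counts in vehicle and 5 and 14 counts in Liq and was not tested. ESR1 had 17 to 34 counts per sample, and its log2 fold change of 0.31 did not pass the test (adjusted p = 0.5539 from edgeR). The membrane estrogen receptor gene GPER1, listed as GPER, had 19 to 26 counts and a log2 fold change of -0.19 (adjusted p = 0.7319 from edgeR).

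Liq was compared with vehicle by edgeR's quasi-likelihood test over 13546 genes, with p-values adjusted by the Benjamini-Hochberg method over all of them and a gene called changed at an adjusted p-value under 0.05. Fold changes are Liq over vehicle. By this rule 5 of the 9 tested members changed, or 55.6%, against 24.0% of all tested genes. The members were chosen with earlier results of these data known, and of 9 other tested BCL2 relatives, given below, 0 were called. The share of 55.6% thus describes the chosen genes and not the whole family. The 4 members that fell compare with 11.3% of all tested genes that fell, and the 1 that rose with 12.6% that rose. With a fold change of at least 1.5 in addition, 2 members fell and 0 rose, against 6.45% of all tested genes in either direction, 2.16% downward and 4.29% upward. At an unadjusted p-value under 0.05 and this fold the members were again 2 lower and 0 higher. No share of all genes was taken for this rule. DESeq2 with no fold limit also called 4 lower and 1 higher, against 17.9% of all genes it tested. In 6 of the 9 tested members the groups did not overlap, a share near the 61.7% of all tested genes. The median log2 fold change of the 9 members was -0.12, and that of all tested genes was 0.01. Every tested member had at least 71 counts in each sample, so none passed the filter on low counts through 1 group only.

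**Figure D1:**
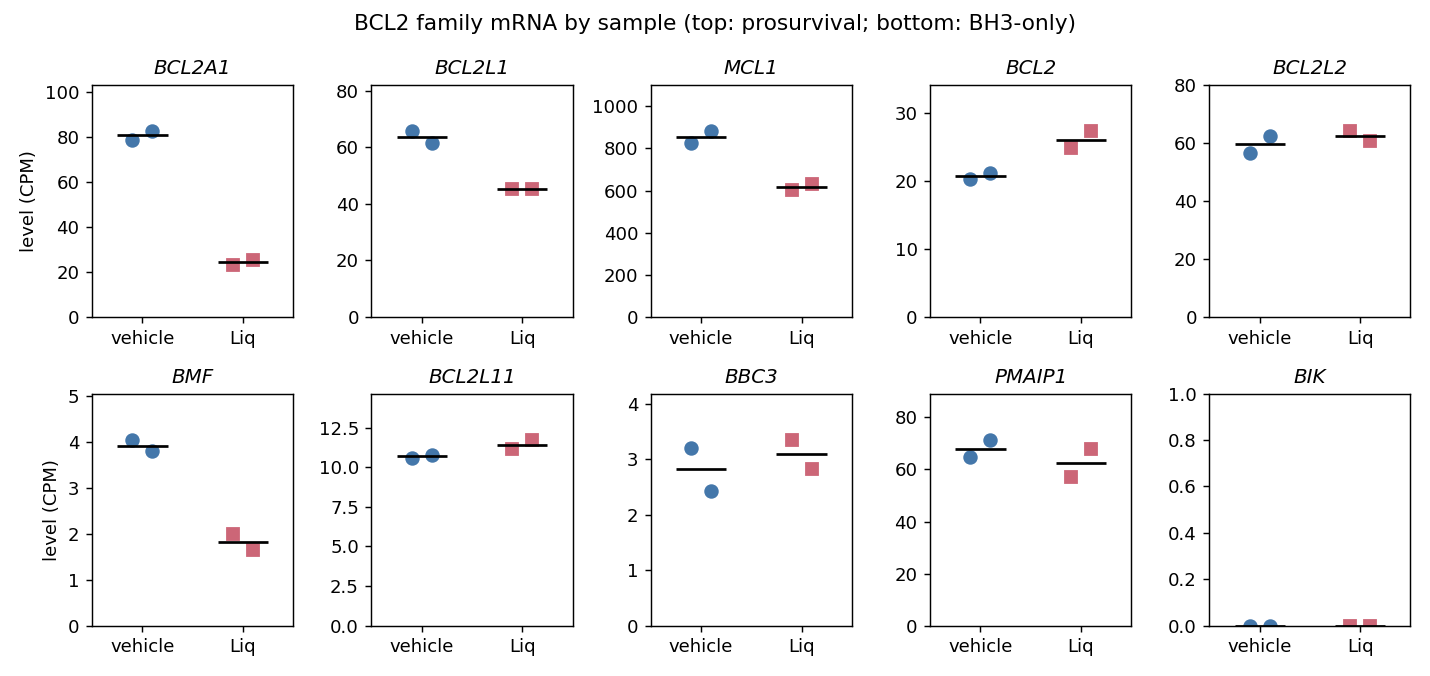
Expression of the 10 members in each sample, in CPM on axes that start at 0, with vehicle samples as circles, Liq samples as squares and group means as lines. BCL2A1 stood at 78.8 and 82.4 CPM in vehicle and at 23.2 and 25.5 CPM in Liq, and BIK was at 0 in all 4 samples.

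BCL2A1 (chromosome 15 from 80253234 to 80263538, GRCh37, GENCODE, minus strand) was the member with the largest fall. Its level was 78.8 and 82.4 CPM in the vehicle samples and 23.2 and 25.5 CPM in the Liq samples. Both Liq samples lay far below both vehicle samples, and the samples of each group were close together. The mean was 80.6 ± 2.6 CPM with vehicle and 24.3 ± 1.6 CPM with Liq (mean ± SD, n = 2). The log2 fold change was -1.72 with an SE of 0.09 and a 95% interval from -1.90 to -1.55 (adjusted p = 3.501e-14 from edgeR), a level 3.30 times lower. Among the 13546 tested genes BCL2A1 had the 9th smallest p-value and the 37th largest fall, and it ranked 4689 by mean CPM. In RNA from whole cultures, fewer cells of a kind and less RNA per cell cannot be told apart. Markers of blood cells were at the levels given above.

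BCL2L1 (chromosome 20 from 30252255 to 30311792, minus strand), which encodes the prosurvival protein BCL-XL and, by another splice site, the proapoptotic BCL-XS, was at 65.6 and 61.6 CPM in vehicle and 45.4 and 45.3 CPM in Liq. The groups did not overlap, and the Liq samples were nearly equal. The log2 fold change was -0.49 with an SE of 0.08 (adjusted p = 6.919e-05 from edgeR), 1.40 times lower and so under a fold of 1.5. Counts per gene do not separate the splice forms. The prosurvival gene MCL1 (chromosome 1 from 150533371 to 150552214, minus strand) was at 824 and 881 CPM in vehicle and 602 and 631 CPM in Liq. Again both Liq samples were below both vehicle samples. Its log2 fold change was -0.47 with an SE of 0.06 (adjusted p = 3.555e-06 from edgeR), 1.38 times lower. MCL1 was the member with the most reads, 21406 to 33859 per sample, and it ranked 127 of all tested genes by mean CPM. The 95% intervals of the log2 fold changes of BCL2L1 (-0.65 to -0.32) and MCL1 (-0.59 to -0.34) overlapped, and neither reached that of BCL2A1.

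BCL2 (chromosome 18 from 60790579 to 60987361, minus strand), the founding member of the family, was at 20.3 and 21.1 CPM in vehicle and 24.8 and 27.2 CPM in Liq. Both Liq samples were above both vehicle samples. The log2 fold change was 0.33 with an SE of 0.10 (adjusted p = 0.01254 from edgeR), 1.26 times higher. This call was lost without vehicle replicate 1 (adjusted p = 0.1839 from edgeR), without vehicle replicate 2 (0.0855) and without Liq replicate 2 (0.05591), so it is the least certain of the 5. BCL2L2 (chromosome 14 from 23767999 to 23780960, plus strand), which encodes BCL-W, was at 56.5 and 62.6 CPM in vehicle and 64.0 and 60.7 CPM in Liq. The groups overlapped. The log2 fold change was 0.07, with a 95% interval of -0.10 to 0.24 (adjusted p = 0.5897 from edgeR), which leaves out a change of 1.5-fold in either direction. Of its transcript, 16.7% is shared with the readthrough gene BCL2L2-PABPN1, which is listed at 0 in all samples. Both genes were thus in the authors' annotation. Where it gave both the shared bases, reads there could not be assigned, and the level of BCL2L2 is then a lower limit.

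**Figure D2:**
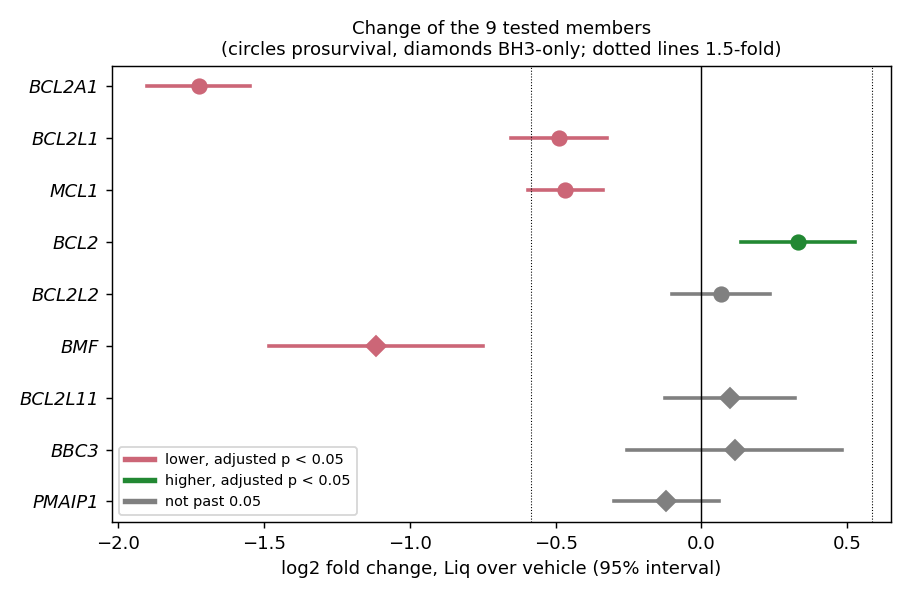
Log2 fold change of the 9 tested members, Liq over vehicle, with 95% intervals from edgeR. Circles are prosurvival and diamonds BH3-only members, red and green mark adjusted p-values under 0.05, and dotted lines mark 1.5-fold. Only the intervals of BCL2A1 and BMF lie wholly beyond 1.5-fold.

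Among the BH3-only members, only BMF passed the test. BMF (chromosome 15 from 40380091 to 40401093, minus strand), which binds the dynein light chains and is released upon loss of attachment, had 166 and 142 counts in vehicle and 71 and 83 counts in Liq. This was 4.04 and 3.79 CPM against 2.00 and 1.65 CPM, with no overlap. The mean was 3.92 ± 0.17 CPM with vehicle and 1.83 ± 0.24 CPM with Liq (mean ± SD, n = 2). The log2 fold change was -1.12 with an SE of 0.18 and a 95% interval from -1.48 to -0.75 (adjusted p = 4.363e-05 from edgeR), 2.17 times lower. It was the 104th largest fall of all tested genes.

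BCL2L11 (chromosome 2 from 111876955 to 111926021, plus strand), which encodes BIM, a BH3-only protein that binds all prosurvival members, was at 10.6 and 10.8 CPM in vehicle and 11.1 and 11.7 CPM in Liq. The Liq samples were above the vehicle samples by little, and the log2 fold change of 0.10 (95% interval -0.13 to 0.32) did not pass the test (adjusted p = 0.5553 from edgeR). BBC3 (chromosome 19 from 47724079 to 47736023, minus strand), which encodes PUMA, a BH3-only protein that binds all prosurvival members, had 132 and 91 counts in vehicle and 119 and 142 counts in Liq. This was 3.21 and 2.43 CPM against 3.35 and 2.83 CPM, and the groups overlapped. Its log2 fold change was 0.11 (95% interval -0.26 to 0.48, adjusted p = 0.6911 from edgeR), and this sign turned under 3 alternatives given in the closing part. PMAIP1 (chromosome 18 from 57567228 to 57571537, plus strand), which encodes NOXA, a BH3-only protein that binds MCL1 and BFL-1, was at 64.6 and 71.3 CPM in vehicle and 57.0 and 67.8 CPM in Liq. The groups overlapped, and the log2 fold change was -0.12 (95% interval -0.30 to 0.06, adjusted p = 0.3398 from edgeR). Without Liq replicate 2, its higher Liq sample, PMAIP1 passed the test as lower (log2 fold change -0.25, adjusted p = 0.01844 from edgeR). The intervals of BCL2L11, BBC3 and PMAIP1 leave out a change of 1.5-fold in either direction. BIK (chromosome 22 from 43506756 to 43525718, plus strand), a BH3-only gene known from epithelial cells, had 0 counts in all 4 samples, which allows a level of up to 0.0598 to 0.0844 CPM, for counting error only.

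**Figure D3:**
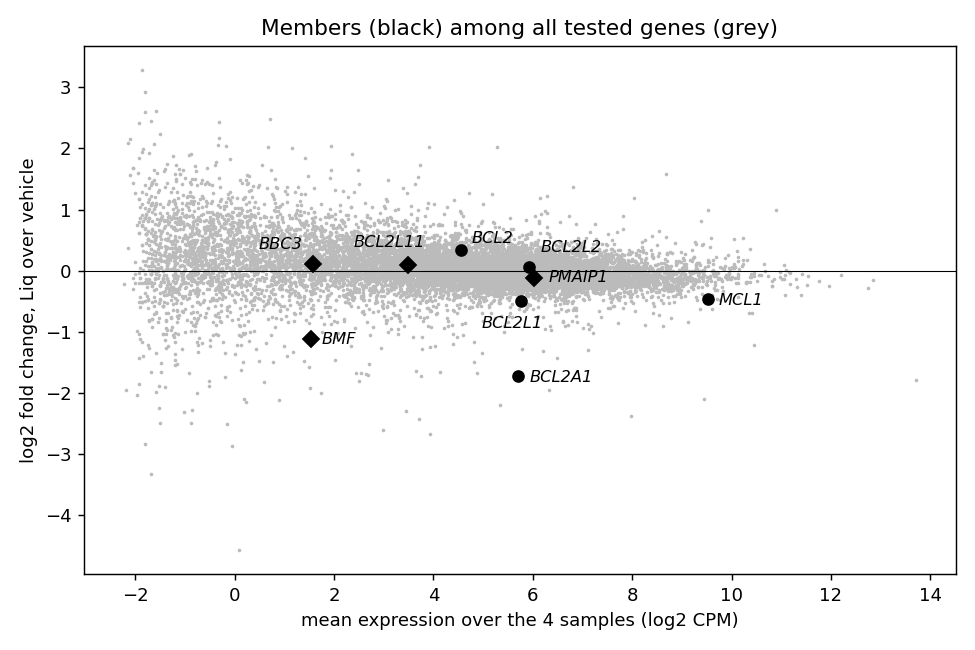
Log2 fold change, Liq over vehicle, against mean expression over the 4 samples (log2 CPM) for the 13546 tested genes in grey and the 9 tested members in black. BCL2A1 and BMF lie below the bulk of genes of their expression level, and MCL1 lies toward the right end.

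Levels of different genes were compared per length, as RPKM, the CPM divided by the length of the MANE Select transcript in kb. In vehicle the order was MCL1 at 208 and 223 RPKM, BCL2A1 at 101 and 106, PMAIP1 at 34.0 and 37.5, BCL2L1 at 25.5 and 23.9, BCL2L2 at 16.0 and 17.7, BCL2 at 2.95 and 3.07, BCL2L11 at 2.08 and 2.12, BBC3 at 1.74 and 1.32 and BMF at 0.860 and 0.808. No neighbors in this order overlapped. In Liq, MCL1 was again first at 152 and 160 RPKM. BCL2A1 at 29.7 and 32.6 RPKM then overlapped PMAIP1 at 30.0 and 35.7, and BCL2L1 at 17.6 in both samples overlapped BCL2L2 at 18.2 and 17.2. With the length of all annotated exons of a gene in place of this transcript, PMAIP1 (26.1 and 31.0) was above BCL2A1 (23.3 and 25.6) in Liq, and BCL2L2 (13.2 and 12.5) was above BCL2L1 (10.8 in both).

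The 5 prosurvival members summed to 354 and 373 RPKM in vehicle and 222 and 231 RPKM in Liq. Of this sum BCL2A1 held 28.5% and 28.3% in vehicle and 13.4% and 14.1% in Liq. The share of MCL1 went from 58.9% and 59.7% to 68.8% and 69.1%, although its own level fell. BCL2L2 went from 4.52% and 4.75% to 8.20% and 7.45%, and BCL2 held less than 2% in every sample. The BH3-only members summed to 38.7 and 41.8 RPKM in vehicle and 34.5 and 39.9 RPKM in Liq, so here the groups overlapped. PMAIP1 held 87.2% to 89.8% of that sum in every sample, and BMF held 2.22% and 1.93% in vehicle and 1.24% and 0.884% in Liq. These sums and shares are descriptions of the samples and were not tested.

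**Figure D4:**
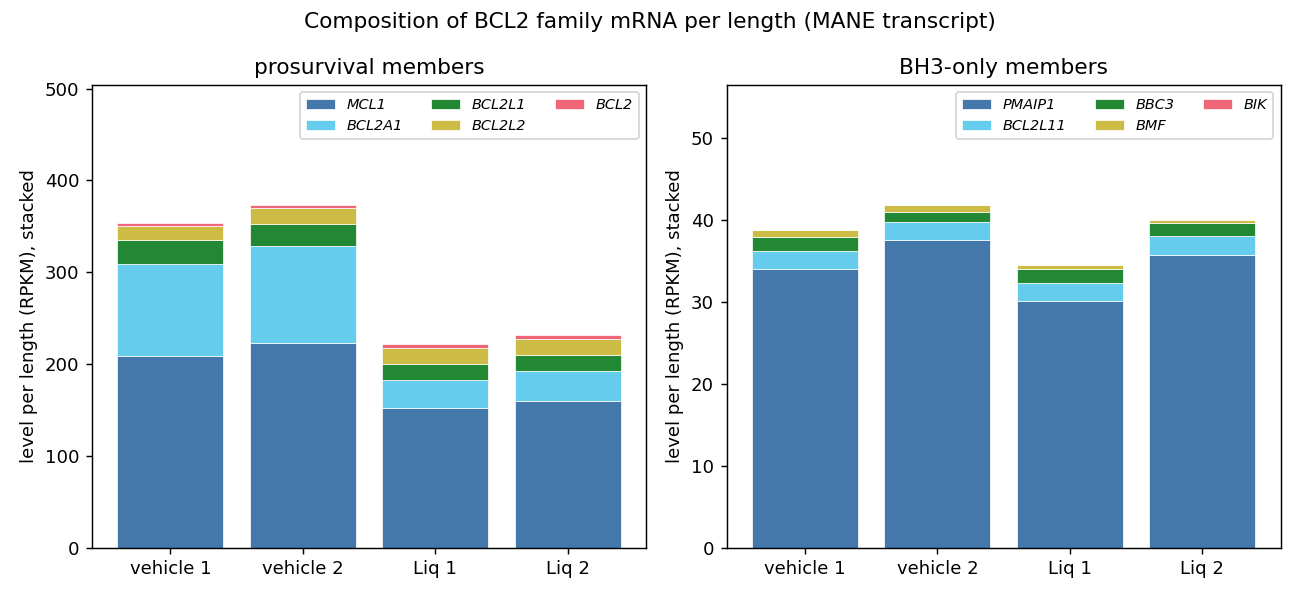
Stacked level per length (RPKM, MANE Select transcript) of the 5 prosurvival members and the 5 BH3-only members in each sample. The prosurvival stacks are lower in both Liq samples (222 and 231 RPKM) than in both vehicle samples (354 and 373 RPKM), and the BH3-only stacks overlap between the groups.

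Around the members, 79 other apoptosis genes were read from the same fit, of which 72 were tested. Of these 11 fell and 4 rose, or 20.8% in all, which is near the 24.0% of all tested genes. Their median log2 fold change was -0.05. Without vehicle replicate 1 the count was 9 (12.5%) and without vehicle replicate 2 it was 7 (9.72%), while the share called over all tested genes fell to 10.7% and 11.6%.

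The other BCL2 relatives include the pore formers. Of 13 relatives, 9 were tested and 0 were called by edgeR, 0 at an unadjusted p-value under 0.05 and 0 by DESeq2, with log2 fold changes from -0.19 to 0.05. BAX, which the naming rule did not pick, stood at 56.4 ± 4.9 CPM with vehicle and 56.4 ± 3.5 CPM with Liq (mean ± SD, n = 2). BAK1, the other pore former, was at 12.1 ± 0.4 CPM and 10.6 ± 0.7 CPM (SD, n = 2), with a log2 fold change of -0.19 (adjusted p = 0.2144 from edgeR). The mitophagy receptor gene BNIP3L (-0.15) and BCL2L12 (-0.15) had the other small p-values of this list and did not pass (adjusted p = 0.1487 and 0.2761 from edgeR). Without Liq replicate 2, BNIP3L passed as lower (adjusted p = 0.02499 from edgeR). HRK, BCL2L10 and BCL2L14 had no count in any sample, and BCL2L15 had 2 to 9 counts.

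Of 17 genes of the mitochondrial apoptosis route, all tested, 3 fell and 1 rose, none by 1.5-fold. The outer membrane channel gene VDAC1 fell by 0.29 on the log2 scale, and DFFA, the inhibitor and chaperone of the caspase-activated nuclease, rose by 0.32 (adjusted p = 0.002663 and 0.002727 from edgeR). Both calls were lost without vehicle replicate 1 and again without vehicle replicate 2, VDAC1 at adjusted p-values of 0.0599 and 0.07149 and DFFA at 0.0553 and 0.08053 (edgeR). VDAC3, another outer membrane channel gene, was called lower, with a log2 fold change of -0.20 (adjusted p = 0.04541 from edgeR). It was named after its value was seen, and whether its call holds under the alternatives was not tested.

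Of the 8 caspase inhibitors 6 were tested and 2 fell. BIRC3, which encodes cIAP2 and is a target of NF-κB like BCL2A1, went from 18.8 ± 0.5 with vehicle to 11.9 ± 1.3 with Liq (CPM, mean ± SD, n = 2), for a log2 fold change of -0.65 (adjusted p = 5.282e-05 from edgeR). CFLAR, which encodes the caspase-8 inhibitor c-FLIP, had a log2 fold change of -0.35 (adjusted p = 0.004795 from edgeR), and its call was lost without vehicle replicate 2 (adjusted p = 0.1659 from edgeR). XIAP had a log2 fold change of -0.13 (adjusted p = 0.3469 from edgeR), passed as lower without Liq replicate 2 and changed sign without Liq replicate 1.

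Of 11 death receptor genes 10 were tested, 1 rose and 1 fell. TNFRSF1A, the TNF receptor gene, rose from 90.2 ± 6.4 with vehicle to 120.4 ± 5.1 with Liq (CPM, mean ± SD, n = 2), for a log2 fold change of 0.42 (adjusted p = 0.0002726 from edgeR). FASLG, the ligand of FAS, had 209 and 200 counts in vehicle and 145 and 191 counts in Liq, a log2 fold change of -0.41 (adjusted p = 0.04035 from edgeR) that lost its call without vehicle replicate 1 (adjusted p = 0.151), without vehicle replicate 2 (0.2369), without Liq replicate 2 (0.1264), with upper-quartile normalization (0.06066) and with DESeq2 (0.1814). FAS itself had a log2 fold change of 0.33 that did not pass (adjusted p = 0.08008 from edgeR), and passed without Liq replicate 1 (adjusted p = 0.009286 from edgeR). Of 11 genes for partners and turnover of the family, 1 fell. DYNLL1, a dynein light chain gene, had a log2 fold change of -0.19 (adjusted p = 0.04012 from edgeR). This call was lost with upper-quartile normalization (adjusted p = 0.07685 from edgeR) and with loess offsets (0.2316). The call was also lost without vehicle replicate 1, without vehicle replicate 2 and without Liq replicate 2, fits that leave 1 sample in a group. When 1 sample was left out the log2 fold change of DYNLL1 was -0.215 to -0.171. DYNLL2, another dynein light chain gene, did not pass (-0.08, adjusted p = 0.4515 from edgeR) and was named after its value was seen. The kinase gene MAPK8 (-0.13) and the BCL2-binding gene BAG1 (-0.12) did not pass (adjusted p = 0.2736 and 0.2868 from edgeR).

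Of 19 transcription regulators of family members 4 fell and 2 rose. EGR1, an immediate early factor, stood at 127.1 ± 9.4 CPM with vehicle and 32.9 ± 2.1 CPM with Liq (mean ± SD, n = 2), which gave a log2 fold change of -1.95 (adjusted p = 1.826e-15 from edgeR). FOS had 134 and 133 counts in vehicle and 78 and 88 counts in Liq, a log2 fold change of -0.80 (adjusted p = 0.002073 from edgeR). The NF-κB subunit gene RELB fell by 0.61 on the log2 scale (adjusted p = 8.537e-05 from edgeR) and NFKB1 fell by 0.38 (adjusted p = 0.001281 from edgeR), while RELA had a log2 fold change of -0.11 and did not pass (adjusted p = 0.3039 from edgeR). Of those that rose, the forkhead factor gene FOXO3 rose by 0.27 on the log2 scale (adjusted p = 0.02998 from edgeR). RELA and FOXO3 were named after their values were seen, and whether their results hold under the alternatives was not tested.

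**Figure D5:**
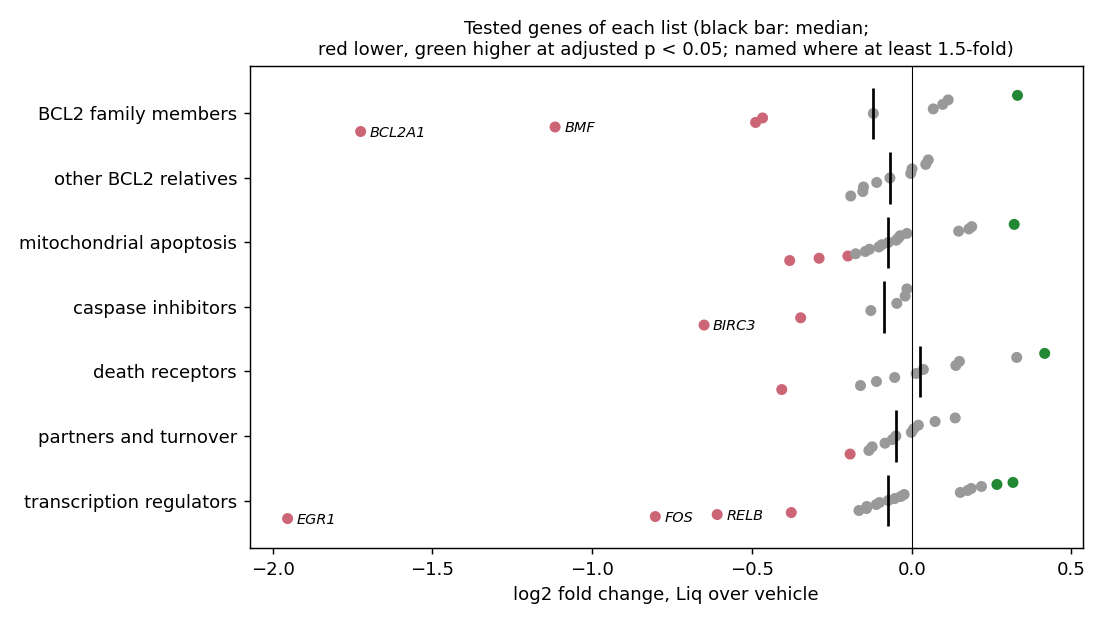
Log2 fold change, Liq over vehicle, of every tested member and of every tested gene of the 6 lists of other apoptosis genes. The median of each list is a black bar. Red and green mark lower and higher genes at an adjusted p-value under 0.05, and genes changed by at least 1.5-fold are named. The other BCL2 relatives lie between -0.19 and 0.05.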

How the data were processed

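Raw counts per gene were deposited for 4 samples of ES2 cells (2 vehicle, 2 Liq), whole numbers that the authors had not normalized, filtered or pooled. Per the labels, 100-base single-end TruSeq reads were demultiplexed with bcl2fastq 2.17.1.14, aligned to hg19 with TopHat2 2.0.8b and counted with HTSeq (version not given in the sources used here). Multiply aligned reads and reads on more than 1 gene were not counted, so close copies and overlapping genes are undercounted. Such reads made up 35.63% to 36.23% and 0.544% to 0.557% of all entries, that is, gene counts and tallies together. These shares may differ from shares of reads. Whether counting used strand is not given in the sources used here. The tallies of such reads were left out of library sizes and tests, and 54.06% to 55.62% of the entries were counted on genes, which is the depth behind the values.

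Groups were taken from the sample titles. Counts were fitted on the whole table in R 4.3.3 with edgeR 4.0.16 (TMM, filterByExpr at a count of 10 and a total of 15 or more, glmQLFit and glmQLFTest, no replicate block, Benjamini-Hochberg adjustment over all 13546 tested genes). A gene was called at an adjusted p-value under 0.05. The study used DESeq with a fold change of at least 1.5, which is given beside. The SE is the size of the log2 fold change divided by the square root of F. Alternatives were other normalizations (DESeq2's size factors, upper quartile and loess offsets with a span of 0.3), other filters, DESeq2 1.42.0, the replicate block, each sample left out and other call rules. The fits were also run on simulated counts with planted 2-fold changes, larger than those of BCL2L1, MCL1 and BCL2. No result here rests on that run. Named genes were all members, and in each other list those called at 1.5-fold and up to 3 with the smallest p-value. For the members with the largest fall and the largest rise, the 5 tested genes with the nearest expression profile were named as well. The members, lists and tests were chosen with earlier results of these data known. Older symbols were matched for MARCHF5 and GPER1. Some genes of the lists are counted with their list but not reported here by name.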

Additional observations from a re-analysis of the deposited data

How the results depend on the processing

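The number of members called was 5 under each of the 7 alternatives of normalization, filter, test and pairing. The share of all tested genes called under them was 17.9% (DESeq2) to 35.4% (replicate block). BCL2A1, BCL2L1, MCL1 and BMF were called lower under all 7. Fits with 1 sample left out made 11 alternatives in all. Across the 11 the log2 fold change was -1.80 to -1.66 for BCL2A1 and -1.28 to -0.97 for BMF. It was -0.53 to -0.44 for BCL2L1, -0.51 to -0.38 for MCL1 and 0.26 to 0.40 for BCL2. With a fold of at least 1.5, 2 members were called, since the other 3 changed by less, against 6.45% of all tested genes. The number was also 2 with a fold of at least 2, and with a fold of at least 1.5 at an unadjusted p-value. No share of all genes was taken for either of these rules, so those counts stand without a comparison. The log2 fold change of BCL2L2 went from -0.005 (without vehicle replicate 1) to 0.146 when 1 sample was left out. That of BBC3 was -0.05 with loess offsets and went from -0.064 (without vehicle replicate 2) to 0.336, with -0.002 without Liq replicate 1. That of XIAP went from -0.308 to 0.026 (without Liq replicate 1). None of these 5 reversed values passed the test, and the cause was not tested. The number of other apoptosis genes called was 24 with the replicate block and 7 to 17 when 1 sample was left out, with fewer samples behind each fit. The replicate numbers are shared by the groups, but nothing in the labels says that they pair samples, and over genes same-numbered samples deviated from the group means with a correlation of 0.0483. The block left the member count at 5 and moved the number of all genes called from 3245 to 4795, and with it BNIP3L passed as lower and FAS as higher (adjusted p = 0.02239 and 0.04296 from edgeR). Genes called higher made up 52.8% of calls, 45.6% with DESeq2 and 60.6% with upper-quartile normalization. Of the 30 genes named by the rule, 301 of 330 values under alternatives kept direction and call. With 2 samples a group, the intervals of BBC3 and BMF, the members with the fewest reads, are the widest.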

Other observations

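The 5 tested genes whose log2 CPM profile over the 4 samples, centred on its mean, lay nearest to that of BCL2A1 were KRT15, CASS4, MMP1, FGF1 and HES1, at Euclidean distances of 0.052 to 0.157. KRT15, a keratin gene of basal epithelium, was at 9.46 and 9.64 CPM in vehicle and 2.76 and 3.11 CPM in Liq. MMP1, which encodes interstitial collagenase, was at 20720 and 20920 CPM in vehicle and 5976 and 6106 CPM in Liq. HES1, a Notch target gene, had a log2 fold change of -1.64, and those of CASS4 and FGF1 were -1.72 and -1.68. The profile of BCL2, the member with the largest rise, lay nearest to those of ELOVL5, HARBI1, CEP70, C16orf95 and SLC11A2, at distances of 0.015 to 0.024. ELOVL5, a fatty acid elongase gene, was at 285.6 and 300.3 CPM in vehicle and 352.9 and 387.7 CPM in Liq. With 4 samples in 2 groups, a near profile says little more than a fold change of like size and a like order of the samples.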
